A study of Mus musculus with 6 samples.

Results

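Insulin-degrading enzyme (Ide) and 7 genes of insulin and insulin-like growth factor (IGF) signalling were followed in mouse pancreas by RNA sequencing: the ligand gene Igf1, the receptor genes Insr, Igf1r and Igf2r, the receptor substrate genes Irs1 and Irs2, and the adaptor gene Grb10. These 8 genes were taken by symbol from 29721 listed genes, and all 8 passed the filter on low counts that left 17652 genes. They were chosen with results of the comparison of knockout with wild type already known, so their differences between genotypes are given as a description, without a p-value. The animals were Ela-myc mice aged 3 months, 3 labelled WT and 3 labelled PARP2 KO, and each library came from a different animal. Ela-myc mice carry Myc driven by the elastase promoter, which is active in acinar cells, the enzyme-secreting cells of the pancreas, so that controls and knockouts alike are a tumour model. PARP2 is a nuclear enzyme that attaches ADP-ribose to proteins at DNA breaks. Which part of Parp2 was removed is not stated. The deposit names the 6 libraries preneoplastic, while the extraction protocol speaks of tumours.

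Insulin and IGF1 bind receptor tyrosine kinases on the cell surface, the insulin receptor and the IGF1 receptor, which phosphorylate the substrates IRS1 and IRS2 and through them activate the lipid kinase PI3K and the kinase AKT. AKT in turn holds FOXO transcription factors out of the nucleus and stimulates mTOR, so that cells take up glucose, store fuel and grow. The pancreas is the source of insulin, from islet beta cells, and its other cells carry receptors for it. IDE is a zinc metallopeptidase that cuts insulin and other small peptides, and it stands at the end of the life of the hormone.

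Library totals lay between 28105021 and 32055565 counts. Levels are given as CPM, counts divided by the library total and set on a common scale with the TMM method, which evens out a few very abundant genes. Parp2 itself was at 40.5, 36.4 and 37.5 CPM in the wild-type animals and at 14.4, 12.4 and 13.6 CPM in knockout replicates 1, 2 and 3. Myc was at 256 to 391 CPM in the wild-type animals and 51.4 to 177 CPM in the knockouts, and any transgene of mouse sequence would add to it. Acinar transcripts, checked by 18 markers, made up 19.0% to 24.5% of wild-type counts and 3.47%, 12.0% and 0.0163% in knockout replicates 1, 2 and 3. Knockout replicate 3 therefore nearly lacked the defining transcripts of the labelled tissue: the amylase gene Amy2a5 was at 0 and the acinar regulator gene Ptf1a was at 0.0257 CPM, against 91.8 to 101.8 CPM in the wild-type animals. Acinar content and genotype cannot be told apart in these 6 libraries, and in bulk tissue fewer cells of a type and less RNA per cell cannot be told apart either.

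Ide was the member that differed most between the genotypes. It had 304, 292 and 289 CPM in the wild-type animals and 73.9, 90.8 and 82.0 CPM in knockout replicates 1, 2 and 3. Every knockout library was far below every wild-type library, and the animals within a genotype were close together. The mean was 295.01 ± 7.96 CPM in the wild-type animals and 82.2 ± 8.46 CPM in knockout (mean ± SD of 3 animals each), which is 3.59-fold lower in knockout, a log2 fold change of -1.84 (SE 0.10, edgeR). Of the 17652 genes tested, 1114 had a log2 fold change as low as this or lower, or 6.31%. Ide lies on the reverse strand of chromosome 19 at 37268743 to 37337852 (GRCm38), and no exon of another gene overlaps its exons in GENCODE vM21. With library totals as the only scaling its log2 fold change was -1.45, and with the acinar level as a term it was -1.80.

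Set beside the acinar share of counts, Ide was at 73.9 CPM in knockout replicate 1, with 3.47%, at 90.8 CPM in knockout replicate 2, with 12.0%, and at 82.0 CPM in knockout replicate 3, with 0.0163%. The knockout library with the most acinar counts, replicate 2, thus also had the highest level of Ide of its group. The one with the lowest level of Ide, replicate 1, was not the one with the fewest acinar counts. Proliferation markers were lower in knockout as well, 8 of 8, with none at 0. Their summed level was 706 to 815 CPM in the wild-type animals and 305, 344 and 379 CPM in knockout replicates 1, 2 and 3. The summed acinar, islet, duct, hepatocyte and fibroblast markers were also lower in every knockout library than in any wild-type library. The part of any of these marker lists in the difference of Ide was not tested.

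**Figure D1:**
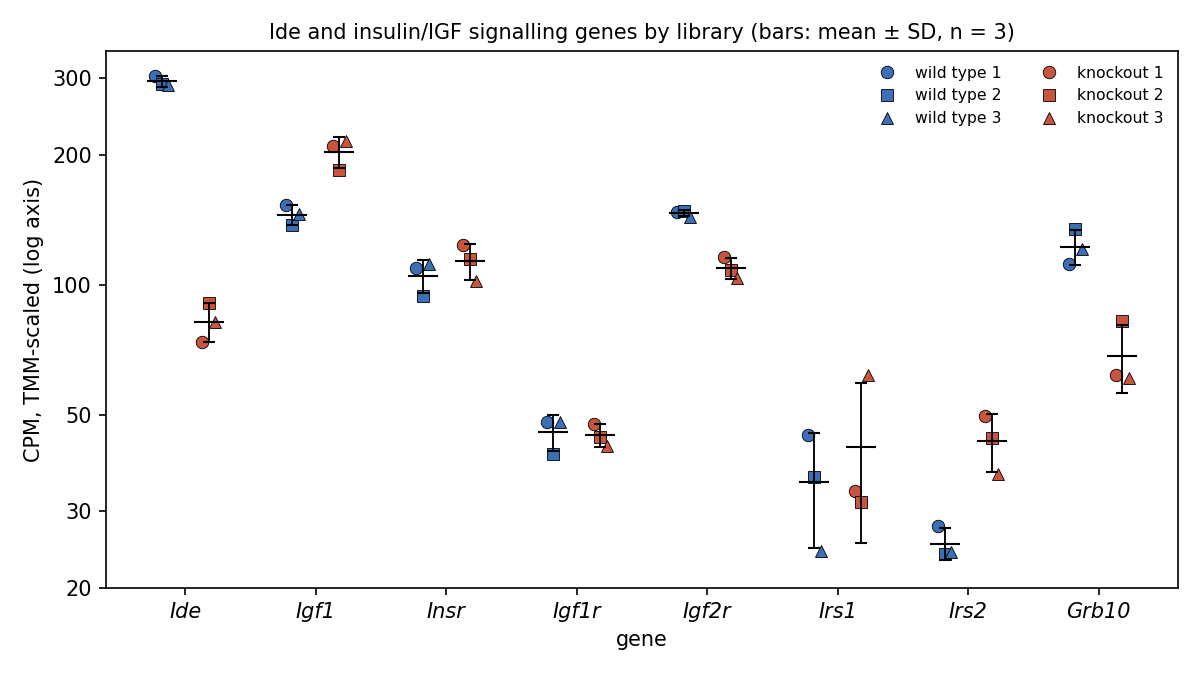
CPM of the 8 genes in each library on a log axis, with wild type in blue and knockout in red, 1 symbol shape per replicate number, and black bars for the mean ± SD of 3 animals. Ide sits at 289 to 304 CPM in the wild-type animals and 73.9 to 90.8 CPM in knockout, and the genotypes overlap for Insr, Igf1r and Irs1.

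Among 11812 other genes with a mean of at least 5 CPM, the 5 whose profile over the 6 libraries was most like that of Ide were Ankle1, Ass1, Exo1, Ccna2 and Gtse1. Likeness was the root mean square difference of log2 levels, each centred on its own mean, and it was 0.068 for Ankle1 and 0.095 for Gtse1, the first and the last of the 5. Since Ide varied little within a genotype, such likeness mostly reflects a similar difference between genotypes. Ankle1 and Exo1 encode nucleases that act on DNA, Ass1 an enzyme of arginine synthesis, Ccna2 a cyclin of S phase and mitosis, and Gtse1 a microtubule-binding protein of dividing cells. Ccna2 stood at 150, 145 and 136 CPM in the wild-type animals and at 33.6, 50.4 and 40.8 CPM in knockout. Ass1 stood at 35.7, 35.3 and 34.6 CPM in the wild-type animals and at 9.003, 12.1 and 9.79 CPM in knockout. Among the other 7 members the nearest to Ide was Grb10, at 0.51, and the farthest was Irs2, at 1.32.

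In all, 5 of the 8 members passed the edgeR threshold of an adjusted p of 0.05, where 53.0% of all genes tested did so. Of these 5, 3 were lower in knockout, Ide, Igf2r and Grb10, against 25.0% of all genes, and 2 were higher, Igf1 and Irs2, against 28.0%. In the same 5 the genotypes did not overlap in CPM, as was the case for 68.1% of all genes tested. Since the members were chosen with this comparison known, nothing is read from these shares.

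Igf1, the growth factor of the group, was higher in the knockout. It was at 153, 137 and 146 CPM in the wild-type animals and at 209, 184 and 215 CPM in knockout. The groups did not overlap, although knockout replicate 2, the one with the most acinar transcripts, was the lowest of its group. The log2 fold change was 0.48 (SE 0.096), or 1.39-fold. With the acinar level as a term it was 0.38 and no longer passed the threshold. Calls over all genes were also fewer with that term, at 2938 higher and 2204 lower in place of 4938 and 4415. In many tissues fibroblasts, macrophages and fat cells make IGF1 locally, and the liver makes that of the blood. Fat markers were higher for 12 of 12, at 1320 to 2726 CPM in the wild-type animals and 13437 to 18027 CPM in the knockouts. Fibroblast markers, 8 in all, summed to 4383 to 4966 CPM in the wild-type animals and 2845 to 4004 CPM in knockout, with 1 higher and 3 lower. The 9 macrophage markers summed to 1342 to 1397 CPM in the wild-type animals and 1373 to 1690 CPM in knockout, with 3 higher and 1 lower. The 6 hepatocyte markers summed to 104 to 166 CPM in the wild-type animals and 3.91 to 47.9 CPM in knockout, and Serpina1a and Fgb were at 0 in at least 1 library. The part of these cells in the level of Igf1 was not tested.

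The signalling receptors showed little difference. Insr, the insulin receptor gene, was at 109, 94.4 and 112 CPM in the wild-type animals and at 124, 115 and 102 CPM in knockout. The ranges overlapped, and the log2 fold change was 0.11 (SE 0.11). Igf1r, the IGF1 receptor gene, was at 48.3, 40.7 and 48.3 CPM in the wild-type animals and at 47.8, 44.6 and 42.4 CPM in knockout. These ranges overlapped as well, with a log2 fold change of -0.03 (SE 0.10). With library totals as the only scaling, which raised the median log2 fold change of all genes from 0.02 to 0.42, Insr stood at 0.51 and passed the threshold, while Igf1r turned to 0.37 without passing it. Measured per kilobase of exon, Insr was 2.76, 2.83 and 2.82 times as abundant as Igf1r in wild type and 3.16, 3.14 and 2.95 times in knockout. This ratio needs no scaling between libraries, and its ranges in the genotypes lay close together without overlapping.

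Igf2r, whose product removes IGF2 from the cell surface and carries enzymes to lysosomes, was the most even of the 8 genes in wild type. It was at 148, 148 and 144 CPM there and at 116, 108 and 104 CPM in knockout. The groups did not overlap, at a log2 fold change of -0.42 (SE 0.077), or 1.34-fold lower. This difference rested on the scaling: with library totals only it was -0.02. It missed the threshold with the acinar level as a term, at -0.37. The antisense RNA Airn runs across Igf2r from the other strand without sharing exons, and it was at 6.82 to 8.55 CPM in the wild-type animals and 5.24 to 7.002 CPM in knockout, which overlapped.

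The substrate genes went separate ways. Irs2 was at 27.7, 23.9 and 24.2 CPM in the wild-type animals and at 49.9, 44.3 and 36.6 CPM in knockout. All knockout libraries were above all wild-type libraries, and knockout replicate 3 was the lowest of its group. The log2 fold change was 0.79 (SE 0.14), or 1.73-fold, and 1.19 with library totals only. An RNA gene on the other strand, 9530052E02Rik, shares 162 exonic bases with Irs2. It had 3 to 16 counts in wild type and 38 to 85 in knockout, against 556 to 708 and 1403 to 1846 counts of Irs2.

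Irs1 was at 45.0, 36.0 and 24.3 CPM in the wild-type animals and at 33.4, 31.6 and 61.8 CPM in knockout. It varied most among the members within a genotype, with a coefficient of variation of 29.6% in wild type and 40.1% in knockout, and the ranges overlapped. Knockout replicate 3, the library almost without acinar transcripts, was the highest of all 6. The log2 fold change was 0.27 (SE 0.34), and it turned to -0.09 without that library and to -0.35 with the acinar level as a term. Irs1 shares 2822 exonic bases with the predicted gene Gm9747 on the other strand, which had at most 1 count in any library.

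Grb10, an adaptor that binds the insulin and IGF1 receptors and restrains them, was lower in knockout. It was at 112, 135 and 121 CPM in the wild-type animals and at 61.8, 82.6 and 61.01 CPM in knockout. The groups did not overlap, and knockout replicate 2, with the most acinar transcripts of its group, was nearest to wild type. The log2 fold change was -0.84 (SE 0.15), or 1.79-fold lower, and -0.45 with library totals only. Grb10 and Igf2r are both imprinted genes in mice, expressed mainly from the maternal copy in most tissues outside the brain.

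**Figure D2:**
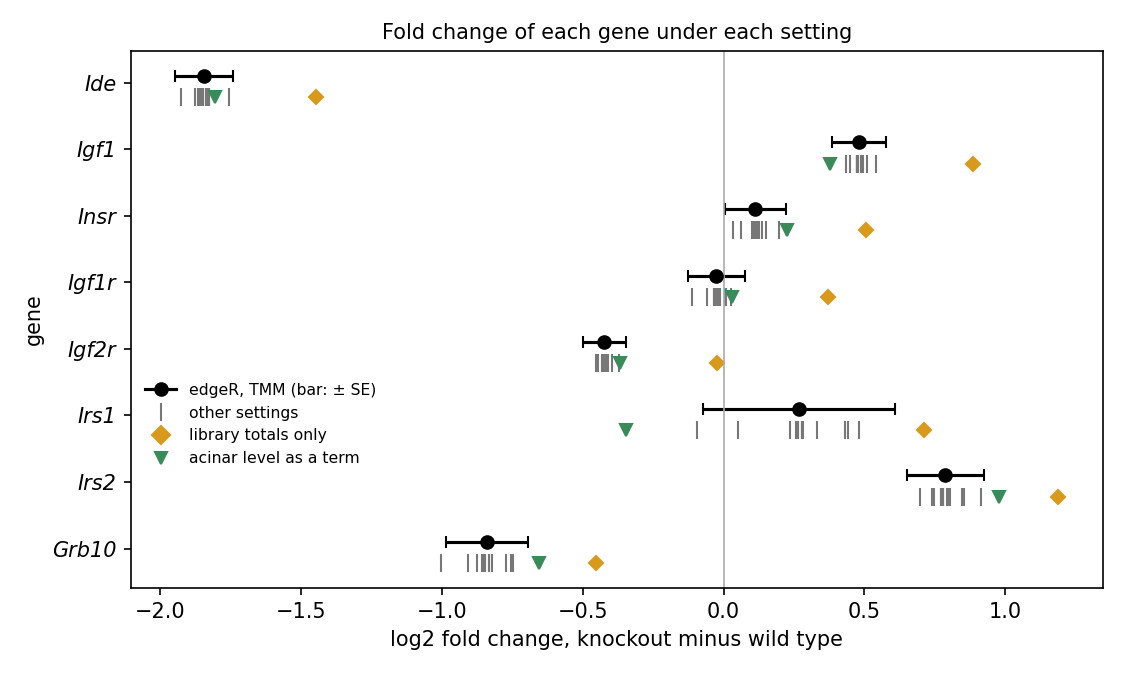
Log2 fold change of each gene, knockout minus wild type. Black points with bars are the edgeR estimate ± SE, grey ticks other settings including each library left out, orange diamonds scaling by library totals only, and green triangles the fit with the acinar level as a term. Ide stays between -1.93 and -1.45, Igf2r moves to -0.02 with library totals, and Irs1 lies on both sides of 0.

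Levels can be set beside each other only per length of transcript. In CPM per kilobase of exon, Ide came first in wild type at 39.3 ± 1.06, ahead of Igf2r at 15.7 ± 0.26, Igf1 at 14.7 ± 0.77, Grb10 at 13.5 ± 1.278, Insr at 7.64 ± 0.68, Irs2 at 3.995 ± 0.34, Irs1 at 3.84 ± 1.14 and Igf1r at 2.73 ± 0.26 (SD, n = 3). Igf1 and Grb10 overlapped, as did Irs2 with Irs1 and Irs1 with Igf1r, while Ide stood clear of every other member. In knockout Igf1 came first at 20.5 ± 1.67, followed by Igf2r at 11.7 ± 0.67, Ide at 10.95 ± 1.13, Insr at 8.26 ± 0.78, Grb10 at 7.53 ± 1.35, Irs2 at 6.90 ± 1.05, Irs1 at 4.62 ± 1.85 and Igf1r at 2.68 ± 0.16 (SD, n = 3). There Igf1 stood clear of the rest, Ide and Igf2r overlapped, and so did the neighbours from Insr down to Irs1. Per kilobase Ide was 4.75 to 5.66 times as abundant as Insr in wild type and 1.09 to 1.47 times in knockout.

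The start regions of Ide, of the substrate genes and of Igf2r are shown because the first has the largest difference and the other 3 share a motif. RefSeq (GRCm38.p6) gave a promoter window, from 250 bases before to 50 after the annotated start, for 7 of the 8 members, and none for Insr. The E-box CACGTG, the same on both strands and a sequence that MYC with its partner MAX can bind, is present in the windows of Igf2r, Irs1 and Irs2, and in 7.15% of 32851 such windows. That share was not matched for CpG content, and the E-box itself holds a CpG. The forkhead core TGTTTAC, searched on both strands, is in no member window and in 3.65% of all. The annotated starts used for Igf1 and Grb10 lie inside their GENCODE genes, by 2846 bases for Igf1 and by 1263 and 10712 bases for Grb10. The Ide window is on the reverse strand at chr19:37334495-37334794. Its annotated start is 3308 bases inside the GENCODE gene, and the whole window lies within that gene. It holds 0 CpG dinucleotides at 44.0% G and C, against medians of 7 and 52.7% over all windows. Those of Igf2r (chr17:12769657-12769956), Irs1 (chr1:82291390-82291689) and Irs2 (chr8:11008880-11009179), also on the reverse strand, hold 34, 28 and 41 CpG dinucleotides. Capitals mark the E-box. A match is a description of the letters, and binding was not measured.
Ide: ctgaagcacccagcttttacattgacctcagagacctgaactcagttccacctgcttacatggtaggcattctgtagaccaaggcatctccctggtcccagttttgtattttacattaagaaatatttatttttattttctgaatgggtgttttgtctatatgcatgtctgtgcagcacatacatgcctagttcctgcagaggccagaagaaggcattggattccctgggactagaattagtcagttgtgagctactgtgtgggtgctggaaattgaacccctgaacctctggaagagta
Igf2r: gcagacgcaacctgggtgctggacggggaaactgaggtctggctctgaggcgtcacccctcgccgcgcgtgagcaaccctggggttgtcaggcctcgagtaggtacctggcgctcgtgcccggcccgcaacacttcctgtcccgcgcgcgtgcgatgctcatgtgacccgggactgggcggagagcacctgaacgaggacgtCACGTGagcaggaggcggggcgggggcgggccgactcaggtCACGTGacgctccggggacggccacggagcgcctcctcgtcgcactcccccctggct
Irs1: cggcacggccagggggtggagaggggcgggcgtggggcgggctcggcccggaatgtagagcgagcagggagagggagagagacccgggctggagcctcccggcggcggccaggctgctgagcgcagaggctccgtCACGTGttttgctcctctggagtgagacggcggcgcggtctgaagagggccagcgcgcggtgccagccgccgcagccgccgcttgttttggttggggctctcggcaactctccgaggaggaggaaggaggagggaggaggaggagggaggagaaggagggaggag
Irs2: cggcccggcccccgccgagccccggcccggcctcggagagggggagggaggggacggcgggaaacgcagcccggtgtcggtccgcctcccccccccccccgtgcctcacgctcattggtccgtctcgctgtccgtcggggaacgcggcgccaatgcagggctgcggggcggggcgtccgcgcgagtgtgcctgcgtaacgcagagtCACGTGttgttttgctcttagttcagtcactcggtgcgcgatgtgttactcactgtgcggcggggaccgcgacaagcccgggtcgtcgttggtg

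The insulin genes themselves, Ins1 and Ins2, differed widely between libraries. Ins2 was at 571, 1184 and 669 CPM in the wild-type animals and at 88.7, 275 and 0.617 CPM in knockout replicates 1, 2 and 3. Ins1 was at 294, 578 and 322 CPM in the wild-type animals and at 40.99, 133 and 0.231 CPM in knockout. All knockout libraries were below all wild-type libraries, and knockout replicate 3 held 24 counts of Ins2 and 9 of Ins1. Neither gene passed the test, with log2 fold changes of -2.77 for Ins1 (SE 1.59, adjusted p = 0.185 by edgeR) and -2.73 for Ins2 (SE 1.61, adjusted p = 0.196 by edgeR). Without knockout replicate 3 both did, at -2.18 and -2.14 (adjusted p = 0.0375 and 0.0386 by edgeR). The 16 islet markers, which include both genes, summed to 1505 to 3526 CPM in the wild-type animals and 3.62 to 636 CPM in knockout, with 5 lower, 0 higher, and G6pc2, Pdx1 and Neurod1 at 0 in knockout replicate 3. Ins1 and Ins2 are close copies, and how reads matching both were counted is not stated. Igf2 had 2 to 14 counts per library and was not tested.

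Beyond the members, 107 other genes of the pathway and of peptide breakdown were grouped by role, of which 102 were tested. Of these 37 were higher and 29 lower in knockout, or 36.3% and 28.4%, beside 28.0% and 25.0% of all genes, and the median log2 fold change was 0.08 beside 0.02. With library totals only, 53 were higher and 13 lower, and of all calls 77.6% were then higher in place of 52.8%. The lower count was 17 without wild type replicate 2 and 14 without knockout replicate 1. The lists, like the members, were chosen with earlier results of these data known. The genes named from each list below are mainly the 3 of smallest p. Their adjusted p-values are thus values of selected genes and not independent tests. Among cell type markers, those of fat were higher in knockout for 12 of 12. Endothelial markers were higher for 6 of 7, at 299.7 to 342 and 770 to 885 CPM, and B and T cell markers for 8 of 8 and 9 of 9. No marker of these 4 lists was at 0 in any library, and their part in the pathway genes was not tested.

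Metabolic targets of insulin had the highest median of the 8 lists. Of 13 tested 7 rose and 0 fell, with a median log2 fold change of 1.41. The 7 are 53.8%, beside 28.0% of all genes. Without wild type replicate 3, 9 rose, and without any other single library 5 rose. With the acinar level as a term, or at an adjusted p of 0.01, 5 rose as well. The genes that fell were 2 without knockout replicate 3 and 1 without knockout replicate 2. Pde3b, which encodes the phosphodiesterase through which insulin restrains fat breakdown, was at 64.6, 53.1 and 65.3 CPM in the wild-type animals and at 187, 136 and 163 CPM in knockout (log2 fold change 1.41, SE 0.15, adjusted p = 0.00213 by edgeR). Lipe, the hormone-sensitive lipase gene of fat cells, was at 39.6, 36.3 and 85.4 CPM and at 498, 354 and 396 CPM (log2 fold change 2.95, SE 0.38, adjusted p = 0.00311 by edgeR). Pck1, an enzyme gene that insulin represses in liver and that serves glycerol synthesis in fat, was at 27.2, 11.7 and 25.8 CPM and at 764, 294 and 409.8 CPM. Slc2a4, the insulin-regulated glucose transporter gene of fat and muscle, is in this list and also among the fat markers. Slc2a2, the glucose transporter gene of beta cells, was named after its values were seen. Its log2 fold change was -2.21, and it did not pass the test. It passed without knockout replicate 3, at -1.63 (adjusted p = 0.038 by edgeR), and with limma-voom, at -3.45 (adjusted p = 0.0324 by limma-voom). With the acinar level as a term it was at -0.37 and did not pass.

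PI3K and AKT genes were divided by isoform. Of 14 tested 8 rose and 4 fell, or 57.1% and 28.6%, beside 28.0% and 25.0% of all genes, and the median was 0.30. With library totals only 8 rose and 1 fell, and with the acinar level as a term 4 rose and 0 fell. Without wild type replicate 2 or knockout replicate 1, and with sex as a term, 5 rose, and the genes that fell were 2 without wild type replicate 3 or knockout replicate 3 and 1 without knockout replicate 1. The catalytic subunit gene Pik3cb was at 17.6, 18.5 and 21.98 CPM in the wild-type animals and 43.6, 38.8 and 48.1 CPM in knockout (log2 fold change 1.17, SE 0.13, adjusted p = 0.00221 by edgeR). The regulatory subunit gene Pik3r1 went from 97.4 ± 15.5 to 222 ± 34.2 CPM (mean ± SD of 3 animals each; log2 fold change 1.19). Akt2 rose from 62.8 ± 6.58 to 79.7 ± 2.55 CPM, while Akt1 fell from 248 ± 49.7 to 148 ± 19.9 CPM (mean ± SD of 3 animals each). Akt1 and Akt2 were named after their values were seen. The call of Akt2 was lost when any of wild type replicates 1 and 2 and knockout replicates 1 and 2 was left out (adjusted p up to 0.091 by edgeR), and that of Akt1 without knockout replicate 1 (adjusted p = 0.053 by edgeR) and with library totals only (adjusted p = 0.0702 by edgeR). Both calls were lost with the acinar level as a term, and that of Akt2 also with sex as a term.

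Adaptors and brakes also moved in both directions. Of 15 adaptor and substrate genes 6 rose and 3 fell, or 40% and 20%, beside 28.0% and 25.0% of all genes. With library totals only 9 rose and 0 fell, and with the acinar level as a term 5 rose and 0 fell. Each library left out gave 5 to 7 that rose, while the genes that fell were 0 without wild type replicate 2 and 1 without wild type replicate 3, knockout replicate 1 or knockout replicate 3. Sh2b2, an adaptor of the activated insulin receptor, was at 9.67, 6.23 and 10.4 CPM in the wild-type animals and 34.6, 30.8 and 30.5 CPM in knockout (log2 fold change 1.86, SE 0.20, adjusted p = 0.00219 by edgeR). Dok1 and Grb2, which encode docking and adaptor proteins of tyrosine kinases, rose by a log2 fold change of 0.87 and 0.76. Of 18 brakes 8 rose and 7 fell, or 44.4% and 38.9%, beside 28.0% and 25.0% of all genes. Without knockout replicate 1 the counts were 7 and 2. The brakes that fell were 4 without wild type replicate 1, wild type replicate 2 or knockout replicate 3. They were also 4 with either sex or the acinar level as a term. Cblb, a ubiquitin ligase gene, rose from 33.8 ± 4.19 to 85.2 ± 18.3 CPM, the lipid phosphatase gene Inpp5k from 36.7 ± 1.37 to 65.1 ± 7.34 CPM and the cytokine signalling inhibitor gene Socs1 from 3.07 ± 0.21 to 7.87 ± 1.54 CPM (mean ± SD of 3 animals each; adjusted p between 0.00266 and 0.00371 by edgeR). Grb14, the closest relative of Grb10 among them and named after its values were seen, fell from 20.03 ± 2.48 to 7.13 ± 3.94 CPM, a call lost when any library other than wild type replicate 3 and knockout replicate 2 was left out (adjusted p up to 0.0637 by edgeR) and with the acinar level as a term (adjusted p = 0.0965 by edgeR).

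Of 17 FOXO and mTOR genes 3 rose and 5 fell, or 17.6% and 29.4%, beside 28.0% and 25.0% of all genes. With library totals only 9 rose and 2 fell, and with the acinar level as a term 1 rose and 2 fell. The genes that fell were 3 without wild type replicate 1, wild type replicate 2, knockout replicate 1 or knockout replicate 3 and with sex as a term, and 2 rose without wild type replicate 2. Foxo1, the main FOXO gene of insulin action, was at 51.5, 38.5 and 54.1 CPM in the wild-type animals and 164, 124 and 181 CPM in knockout (log2 fold change 1.70, SE 0.19, adjusted p = 0.00227 by edgeR). The genes of the mTOR inhibitors PRAS40 and DEPTOR both fell: Akt1s1 from 52.4 ± 2.54 to 28.7 ± 3.90 CPM and Deptor from 172 ± 4.27 to 115 ± 12.7 CPM (mean ± SD of 3 animals each). With library totals only Deptor lost its call, at a log2 fold change of -0.19 (adjusted p = 0.21 by edgeR).

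Of 11 IGF binding genes 1 rose, Stc1, and 3 fell, or 9.09% and 27.3%, beside 28.0% and 25.0% of all genes. The call of Stc1, which encodes a secreted glycoprotein, held without knockout replicate 3 but was lost on leaving out any of the other 5 libraries in turn (adjusted p up to 0.0893 by edgeR). The genes that fell were 2 without wild type replicate 1, wild type replicate 2 or knockout replicate 1, and 1 with the acinar level as a term; with library totals only 4 rose. Pappa2, a protease gene whose product frees IGF from its carriers, had 9.45 ± 2.53 and 2.11 ± 0.65 CPM (mean ± SD of 3 animals each) and fell (log2 fold change -2.16, SE 0.33, adjusted p = 0.00391 by edgeR). Igfbp3, the main carrier of IGF in blood, went from 49.8 ± 5.84 to 35.5 ± 1.35 CPM, a call lost with library totals only (adjusted p = 0.644 by edgeR) and with the acinar level as a term (adjusted p = 0.0614 by edgeR). Stc2, an inhibitor of the related protease PAPP-A, went from 47.6 ± 10.4 to 19.9 ± 7.61 CPM. Its call was lost when knockout replicate 1 or either of wild type replicates 1 and 2 was left out (adjusted p up to 0.0715 by edgeR), and with sex (adjusted p = 0.0544 by edgeR) or the acinar level (adjusted p = 0.0628 by edgeR) as a term.

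Relatives of Ide and other peptidases were divided. Of 12 tested 4 rose and 7 fell, or 33.3% and 58.3%, beside 28.0% and 25.0% of all genes, with a median of -0.38. With library totals only 5 rose and 2 fell. Nrd1, the cytosolic relative of Ide in the M16 family, was at 180 ± 3.27 CPM in the wild-type animals and 186 ± 2.09 CPM in knockout and did not pass the test (log2 fold change 0.05, SE 0.072, adjusted p = 0.564 by edgeR). Pitrm1, a mitochondrial relative, fell, with 119 ± 3.90 CPM in the wild-type animals and 72.9 ± 5.36 CPM in the knockouts (log2 fold change -0.71, SE 0.083, adjusted p = 0.00238 by edgeR). Pmpca, Pmpcb, Uqcrc1 and Uqcrc2 of the same list fell too, with log2 fold changes of -0.57, -0.34, -0.54 and -0.42 (adjusted p at most 0.0116 by edgeR). They were named after their values were seen, and their fold changes were not followed under the other settings. Lnpep, whose peptidase travels with the insulin-regulated glucose transporter, rose from 178 ± 16.7 to 390.1 ± 68.2 CPM, and Dpp4, which encodes a peptidase of gut hormones, from 37 ± 5.36 to 96.4 ± 15.7 CPM (mean ± SD of 3 animals each; adjusted p at most 0.00321 by edgeR).

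**Figure D3:**
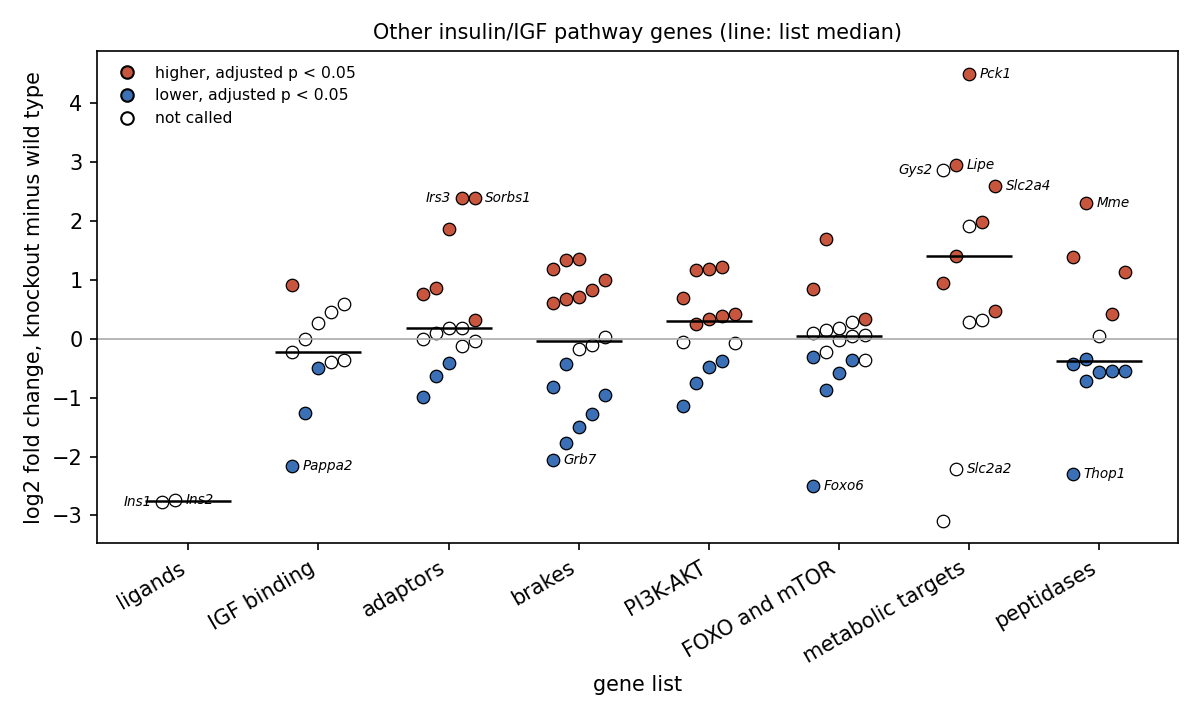
Log2 fold change, knockout minus wild type, of 102 tested genes in 8 lists. Filled points passed the edgeR threshold, red higher and blue lower, open points did not, and lines are list medians. Metabolic targets have the highest median, 1.41, and the brakes and PI3K-AKT lists hold calls in both directions.

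**Figure D4:**
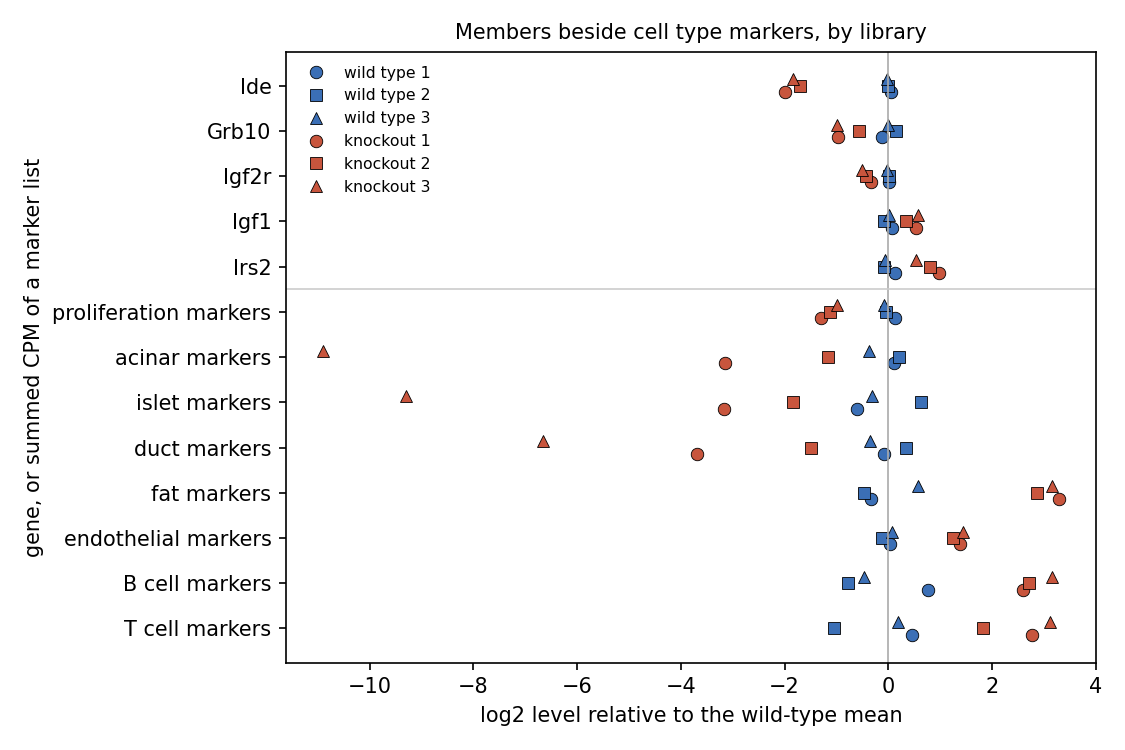
Log2 level of each library relative to the wild-type mean, for the 5 members whose genotypes do not overlap and for the summed CPM of 8 marker lists, with symbols by replicate. Ide lies between -1.99 and -1.69 in the knockout libraries, while the acinar sum runs from -1.17 to -10.90 in the same libraries.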

How the data were processed

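Whole-number read counts per gene, not normalised, were deposited by the authors together with log2 values. Per the submitters' processing notes the tools were STAR 2.5.3a, DESeq2 1.28.1 and FastQC 0.11.5, on GRCm38 (mm10), with no roles stated; no source used here gives the counter or its strand setting. The deposited log2 values equalled log2 of counts divided by DESeq2-type size factors plus 1, within 5.3e-14.

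All genes were tested with edgeR 4.0.16 in R 4.3.3 (quasi-likelihood, robust, TMM, default filter, genotype alone), with Benjamini-Hochberg adjustment over 17652 genes and 0.05 as the threshold. Each SE is |log2 fold change| over the square root of its F statistic. The procedure was tested on simulated counts in which few genes changed, as many up as down. Such counts cannot test the scaling between libraries where many genes differ. Exon lengths and overlaps came from GENCODE vM21, whose positions matched all 29721 listed genes.

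The members and lists were chosen with earlier results of these data known. Named were all members, Parp2, Myc, Ins1, Ins2, Igf2, the 3 genes of smallest p in each list and the 5 most like Ide; 1 gene that this rule names is not reported here. Alternatives used other scaling, filters, DESeq2 1.42.0, limma 3.58.1, sex inferred from Xist and Y-linked counts or the mean log2 CPM of the acinar markers as a covariate, and omission of each library in turn. By these counts wild type replicates 1 and 2 and knockout replicate 1 were male. Wild type replicate 3 and knockout replicates 2 and 3 were female, so sex was not balanced between genotypes. With counts between 28105021 and 32055565 per library, animal differences and not counting error limit precision for well-counted genes. Replicates were never within sampling noise of each other, with chi-square per degree of freedom from 29.1 to 461. That value sums over genes, so abundant ones weigh most, and it does not speak for genes of few counts such as Igf1os.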

Additional observations from a re-analysis of the deposited data

How the results depend on the processing

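Ide, Grb10 and Irs2 kept their direction and passed the edgeR, DESeq2 or limma threshold under every alternative run, with log2 fold changes of -1.93 to -1.45, -1.003 to -0.45 and 0.70 to 1.19. The number of members past the threshold was 5 with each library left out, and 3 with the acinar level as a term, where Igf2r and Igf1 were lost. With library totals only it was again 5, but with Insr in and Igf2r out. The pathway genes lower in knockout numbered 29, and 13 with library totals only, 12 with the acinar level as a term and 8 at an adjusted p of 0.01; leaving out each library gave 14 to 32. The pathway genes higher numbered 37, and 28 to 35 with each library left out. Calls over all 17652 genes changed in number too. They were 4938 higher and 4415 lower, against 2938 and 2204 with the acinar level as a term. At an adjusted p of 0.01 they were 2766 and 2103, and with library totals only 7475 and 2160. With edgeR, Ins1 and Ins2 had log2 fold changes of -0.06 with the acinar level as a term, and with limma-voom -5.32 and -5.07. No call was reversed among the named genes recomputed under these alternatives; Igf2 was not tested, and Airn, which had no call, turned to 0.17 with library totals only. The cause of these shifts was not tested. No paired analysis was possible because replicate numbers follow accession order and no label ties animals across genotypes.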

Other observations

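RNA genes on the strand opposite to members were low and are given as values, chosen after they were seen. Igf1os, which runs across Igf1 without sharing exons, had 1 to 7 counts per library in wild type and 14 to 21 in knockout (log2 fold change 1.85, SE 0.56, adjusted p = 0.0321 by edgeR). This call was lost when any library other than wild type replicate 3 was left out (adjusted p up to 0.1 by edgeR), with DESeq2 and with the acinar level as a term. 9530052E02Rik, which shares exonic bases with Irs2, was at 0.286 ± 0.295 CPM in the wild-type animals and 1.71 ± 0.555 CPM in knockout (mean ± SD of 3 animals each; log2 fold change 2.57, SE 0.67, adjusted p = 0.0201 by edgeR). That call was lost without wild type replicate 2, wild type replicate 3 or knockout replicate 1 (adjusted p up to 0.0673 by edgeR) and with the acinar level as a term. Both were higher in 3 of 3 knockout libraries than in any wild-type library, as were their partners Igf1 and Irs2. Airn, across Igf2r, did not pass the test (log2 fold change -0.25, SE 0.18, adjusted p = 0.283 by edgeR). The strand setting of the counting is not known, so reads of such pairs cannot be told apart where exons overlap.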
